A study of Mus musculus with 6 samples.

Results

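Heat shock proteins and their co-chaperones were examined as a set of 10 genes, taken by gene symbol from a table of 55367 symbols. The set holds the cytosolic chaperones Hsp90aa1, Hsp90ab1, Hspa8, Hspa1a and Hspa1b, their partners Dnaja1, Dnajb1 and Stip1, and the mitochondrial pair Hspd1 and Hspe1. All 10 symbols were found. The libraries are Smart-seq2 preparations (full-length copies of polyadenylated RNA, amplified by PCR) of cells sorted by flow cytometry from the hippocampal dentate gyrus and labelled as tdTomato-positive neurons. The Run group (n = 3) had learned helplessness and then 28 days of voluntary running. The NR group (n = 3) had learned helplessness and no running, so both groups carry the stress and no unstressed animals are compared here. All mice are labelled TRAP2;Ai9 and described as Fos-iCreERT2; Rosa26-LSL-tdTomato, in which tamoxifen lets a Cre recombinase expressed from the Fos gene turn on a lasting red reporter. The reporter marks any cell type in which Fos was active while tamoxifen was present. The design text calls the assay single-cell, and the sources used here do not say whether a library is 1 cell or a pool, nor give strain, age or the number of mice. Each library was taken as a replicate of its group. The p-values thus measure the spread between libraries alone, and that spread may be technical.

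Molecular chaperones bind proteins that are not yet folded or have lost their fold. HSP70 proteins (Hspa8, Hspa1a, Hspa1b) take up client proteins when a J-domain partner (Dnaja1, Dnajb1) delivers them and stimulates ATP hydrolysis. Stip1, also called HOP, then bridges HSP70 to HSP90 (Hsp90aa1, Hsp90ab1), which finishes the folding of kinases and steroid receptors, among them the glucocorticoid receptor of the stress hormone response. Inside mitochondria, Hspd1 (HSP60) forms a folding chamber and Hspe1 (HSP10) its lid. Under heat or other protein stress the transcription factor HSF1 binds heat shock elements, inverted repeats of GAA and TTC, and raises Hspa1a, Hspa1b and Dnajb1 in particular. Enzymatic dissociation and sorting of tissue are also known to induce these genes together with early response genes such as Fos.

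The start regions of a few of the genes are shown because Hspa1a and Hspa1b had values in the same libraries, Hspd1 and Hspe1 tended to run opposite to each other, and Stip1 alone separated the groups. Sequences are from RefSeq windows of GRCm38.p6, the assembly behind mm10, and windows were found for 7 of the 10 genes (Hspa1a, Hspa1b, Dnajb1, Dnaja1, Hspd1, Hspe1 and Stip1). Each of the 3 longer ones holds the 250 bases before the start, 5′ to 3′ on the gene's own strand, and capitals mark matches to the motifs searched.

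Hspa1a, chr17:34972157-34972406, minus strand: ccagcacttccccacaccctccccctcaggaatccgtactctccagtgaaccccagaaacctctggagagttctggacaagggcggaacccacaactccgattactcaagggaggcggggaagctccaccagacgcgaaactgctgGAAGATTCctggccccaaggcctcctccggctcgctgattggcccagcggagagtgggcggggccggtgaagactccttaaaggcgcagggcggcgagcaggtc

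Hspa1b, chr17:34959239-34959488, minus strand: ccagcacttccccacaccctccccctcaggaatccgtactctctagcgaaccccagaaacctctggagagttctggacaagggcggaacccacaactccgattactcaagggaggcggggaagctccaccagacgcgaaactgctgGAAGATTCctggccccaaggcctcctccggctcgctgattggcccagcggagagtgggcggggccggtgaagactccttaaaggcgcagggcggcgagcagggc

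Stip1, chr19:7040027-7040276, minus strand: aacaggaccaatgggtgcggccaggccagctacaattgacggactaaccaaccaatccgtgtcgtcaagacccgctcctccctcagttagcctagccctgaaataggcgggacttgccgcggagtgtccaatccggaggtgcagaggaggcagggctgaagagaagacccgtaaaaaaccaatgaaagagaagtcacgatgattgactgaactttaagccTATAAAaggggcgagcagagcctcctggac

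Hspe1, heat shock element, chr1:55088053-55088082, plus strand: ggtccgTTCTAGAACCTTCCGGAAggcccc

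Dnaja1, GAANNTTC match, chr4:40722333-40722362, plus strand: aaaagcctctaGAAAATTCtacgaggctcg

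The 250 bases of Hspa1a and Hspa1b were identical at 247 positions (98.8%). The differences, counted from 1 at the 5′ end and written with the base of Hspa1a first, were C44T, T47C and T249G. Both held the same GAANNTTC match. That motif, which reads the same on both strands, occurred in 6.72% of 32536 such windows in the RefSeq table, so a match is common. The match of Dnaja1 lay before 1 of its 3 RefSeq starts, at chr4:40722344-40722351. This is inside the annotated gene (40722150 to 40737149). The stricter element of 3 repeats (GAANNTTCNNGAA or, on the other strand, TTCNNGAANNTTC) occurred in 0.47%. Hspe1 and Hspd1 each had it, and it was the same stretch of DNA, chr1:55088059-55088076, before the RefSeq start of Hspe1 and before 1 of the 2 RefSeq starts of Hspd1, on opposite strands. There 2 matches overlap and cover 18 bases, and the shorter motif and its mirror TTCNNGAA (7.19% of windows) lie within them. No heat shock motif was matched exactly in the Dnajb1 windows or in that of Stip1. Elements with mismatches or outside the 250 bases were not searched for. In the Stip1 window a TATA box (TATAAA or TTTATA, 12.3% of windows) was matched at 30 to 25 bases before the start. Motif matches are descriptions of sequence, and no binding was measured.

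The deposited values are FPKM, fragments scaled by transcript length and library size, so levels can be compared between genes. They summed to 475744 to 492021 in Run and 473786 to 487032 in NR, and 5534 to 6291 genes in Run and 5426 to 7355 in NR reached FPKM 1. Read totals are not part of the table, so the depth behind a value is unknown. Some low values could not be whole reads. For genes with 1 annotated transcript, 1.84% to 2.24% of the 2941 to 3265 values above 0 in Run and 1.88% to 2.09% of the 2868 to 3207 in NR were under 1 after multiplying by transcript length, less than a single fragment gives at any usual depth. Zeros need care as well. TRiC, the cytosolic chaperonin that every cell needs, is built of 8 different subunits, yet 2, 1 and 4 of its 8 genes were below FPKM 1 in Run replicates 1, 2 and 3 and 1, 0 and 1 in NR replicates 1, 2 and 3. Why these genes were below FPKM 1 was not tested. The wording below is that a gene was listed at 0, which does not show that its RNA was missing.

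The labelled cell type was only partly borne out by its markers. Of 7 markers of granule neurons 0 reached FPKM 1 in every library, and their summed level ranged from 39.7 to 309 FPKM in Run and 0.285 to 183 in NR, with Dsp below 1 throughout. Of 7 general neuronal markers, 3 did so, with sums of 544 to 831 in Run and 273 to 818 in NR. Of 8 astrocyte markers, 7 did so, and their sums were 2648 to 5257 in Run and 2468 to 4647 in NR. Oligodendrocyte (3 of 7 markers, 145 to 866.5 in Run and 257 to 1360 in NR), endothelial (3 of 6, 783 to 1613 and 846 to 2282) and mural genes (3 of 5, 316.5 to 743 and 489 to 1438) were present too. Microglial genes reached FPKM 1 in all libraries for 1 of 7 (179 to 834 in Run and 55.0 to 455 in NR). The blood list gave 1 of 4 (71.1 to 306 in Run and 23.6 to 191 in NR), with the haemoglobin genes Hbb-bs and Hba-a1 listed at 0 in all 6. Nearly all of its sum was Lyz2, with 71.1, 302 and 251 FPKM in Run and 23.6, 189 and 89.5 in NR. Ptprc had at most 4.22 FPKM, so the list shows little beyond that 1 gene. The chaperone values below are thus those of the sorted material as a whole, in which fewer cells of a type and less RNA per cell cannot be told apart.

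Hspa8 and the HSP90 pair held most of the summed level of the 10 genes, and the totals of runners lay within the range of non-runners. The 10 genes summed to 1560, 1556 and 1595 FPKM in Run replicates 1, 2 and 3, against 1486, 1678 and 1438 in NR replicates 1, 2 and 3. The means were 1570 ± 21.5 in Run and 1534 ± 127 in NR (SD, n = 3 each), a ratio of 1.02. The NR libraries were both the highest and the lowest. As a share of all FPKM the set took 0.324% to 0.328% in Run and 0.304% to 0.351% in NR. Hspa8, Hsp90ab1 and Hsp90aa1 together held 69.7%, 79.4% and 81.5% of the sum in Run and 83.4%, 77.2% and 67.0% in NR. Single members varied more between libraries than this total, as their values show.

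**Figure D1:**
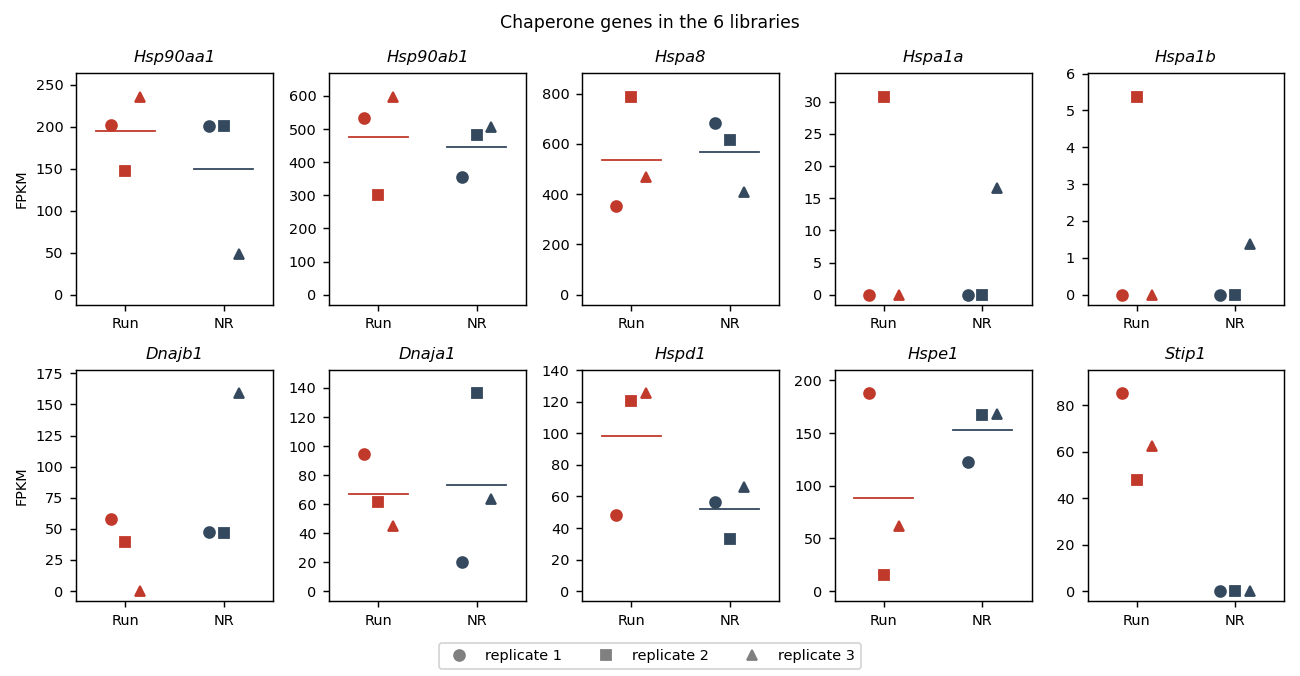
FPKM of each of the 10 chaperone genes in Run (left, red) and NR (right, dark) libraries, 3 per group with a symbol per replicate and a line at the group mean for genes at FPKM 1 or more in all 6 libraries. Only Stip1 has groups that do not overlap (every Run value was above every NR value in 4.76% of all 6155 tested genes), and Hspa1a and Hspa1b have values in the same 2 libraries.

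Hspa8 (chromosome 9, 40800984 to 40810087), the constitutive HSP70 that also uncoats clathrin vesicles at synapses, was the most abundant member on average. It had 353, 787 and 469 FPKM in Run replicates 1, 2 and 3 and 684.5, 614 and 408 in NR replicates 1, 2 and 3. Both the highest and the lowest library were Run libraries, so the groups overlapped fully. The means were 536 ± 225 in Run and 569 ± 143 in NR (SD, n = 3 each), a log2 difference of -0.13 with a 95% interval of -1.09 to 0.82. Throughout, a difference is Run minus NR in log2(FPKM + 1), from limma fitted over the 6155 genes that reached FPKM 1 in 3 or more libraries. Adjusted p-values are Benjamini-Hochberg values over all of these genes. The adjusted p of Hspa8 was 0.983.

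The HSP90 pair was the next in level. Hsp90ab1 (chromosome 17, 45567775 to 45573271), the constitutive cytosolic HSP90, had 532, 301 and 597 FPKM in Run and 354, 481 and 506.5 in NR. It was the steadiest member, with a coefficient of variation of 24.3% over the 6 libraries, against a median of 43.8% over the 624 genes that had a mean of at least 100 FPKM and at least 1 in all libraries. Its log2 difference was 0.05 (95% interval -0.85 to 0.95, limma adjusted p = 0.991). Hsp90aa1 (chromosome 12, 110690605 to 110702728), the stress-inducible HSP90, had 201.5, 147 and 235 FPKM in Run and 201, 200.4 and 48.7 in NR. NR replicate 3 stood below the others, and the remaining NR libraries lay within the Run range. The means were 194.5 ± 44.7 in Run and 150.1 ± 87.8 in NR, a log2 difference of 0.60 (95% interval -1.0 to 2.21, limma adjusted p = 0.978), which was -0.07 without NR replicate 3. Hsp90ab1 was above Hsp90aa1 in 6 of 6 libraries, with a ratio of Hsp90aa1 to Hsp90ab1 of 0.379, 0.487 and 0.394 in Run and 0.568, 0.417 and 0.0961 in NR.

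In order of mean level over the 6 libraries, Hspa8 (553 FPKM) and Hsp90ab1 (462) were followed by Hsp90aa1 (172), Hspe1 (120.4), Hspd1 (75.0) and Dnaja1 (70.1). Hspa8 was above Hsp90ab1 in 3 of 6 libraries, so those neighbours were not ordered. Hsp90aa1 was above Hspe1 in 5 of 6, Hspe1 above Hspd1 in 4 of 6 and Hspd1 above Dnaja1 in 4 of 6. Between Hspa8 and Hsp90ab1 the levels ran opposite to each other, with a Pearson r of -0.835 on the log2 scale over the 6 libraries, the most negative among pairs of these 6 genes. This is a description of 6 points from both groups, each a library whose composition touches both genes. Dnajb1 was below FPKM 1 in 1 library, Stip1 in 3, and Hspa1a and Hspa1b in 4, so they are given no place in this order.

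Values of these chaperones include reads that could have come from near-identical copies. Processed pseudogenes, inserted copies of spliced messenger RNA, were searched for among GENCODE M21 transcripts at 90% identity or more over at least 200 bases. Gm15459 (chromosome 5, 5781615 to 5783555) matched Hspa8 at 99.74% identity over 1941 bases. It had 50.1, 110.6 and 67.7 FPKM in Run and 100.7, 86.2 and 57.4 in NR, which was 14.0% to 14.7% of Hspa8 in every library. With a log2 correlation of 0.998 over the 6 libraries it was, of 1750 genes, the gene most like Hspa8, and the copy Gm8355 (98.71% identity, 1.59% to 1.84% of Hspa8) was the next at 0.986. For Hsp90aa1, Gm12346 held 6.34% to 8.0% and Gm5844 3.75% to 5.82% of its level. For Dnaja1, Gm15542 held 9.73% to 24.9% and Gm7816 2.39% to 7.0% of its level. Hspd1-ps3 held 1.65% to 2.75% of Hspd1. No copy passed the search for Stip1 or Dnajb1. How reads were split between a parent and its copies is uncertain, and adding the copies left the ratio of the 10-gene sum at 1.02.

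**Figure D2:**
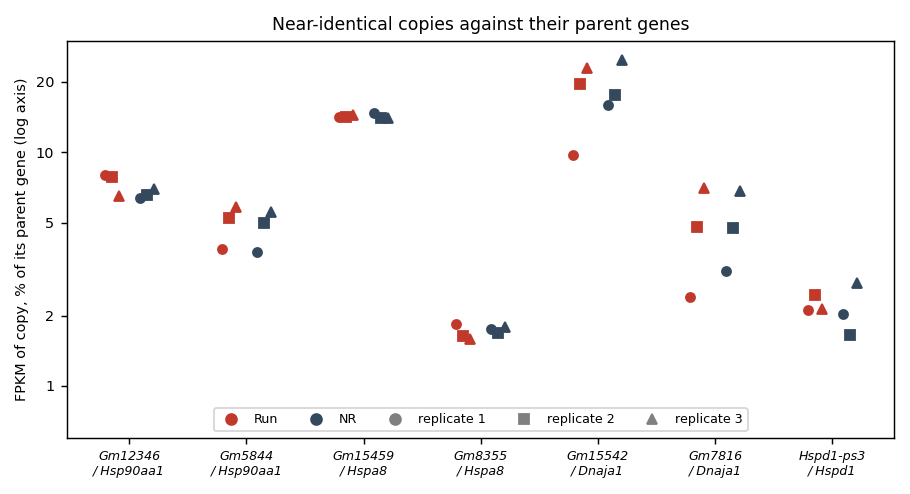
FPKM of 7 near-identical copies as a percentage of their parent gene (log axis) in Run (red) and NR (dark) libraries, with a symbol per replicate. Gm15459 stays between 14.0% and 14.7% of Hspa8 in all 6 libraries, while Gm15542 varies from 9.73% to 24.9% of Dnaja1.

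Apart from its copies, the gene most like Hspa8 was Gja1, the gap junction gene connexin 43 and 1 of the 8 astrocyte markers, with a correlation of 0.97 over the same 6 libraries. Gja1 had 68.3, 396 and 135 FPKM in Run and 333, 243 and 147 in NR. The summed level of the 8 astrocyte markers was 2779, 5257 and 2648 in Run and 4647, 2468 and 3787 in NR. The sum was highest in Run replicate 2, as Hspa8 was, and lowest in NR replicate 2, where Hspa8 had 614 FPKM, above 3 of the other libraries. Of the same list, S100b had 87.1, 14.7 and 174 FPKM in Run and 0, 73.8 and 62.6 in NR, lowest in the libraries where Hspa8 was highest. The part of astrocyte RNA in the Hspa8 values was not tested. The genes most like Hsp90ab1 were Ndufa4, of the respiratory chain (r = 0.969), the tropomyosin gene Tpm3 (0.955) and the histone demethylase gene Kdm6b (0.946). Those most like Hsp90aa1 were Atp6v1b2, of the vacuolar proton pump (0.99), Tnfrsf19 (0.987) and the mitochondrial tRNA mt-Tp (0.986), all low in NR replicate 3 at 3.45, 1.32 and 1.5 FPKM. These are the highest of 1750 correlations over 6 libraries and are given as descriptions.

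The inducible HSP70 genes were listed at 0 in most libraries of both groups. Hspa1a (chromosome 17, 34969190 to 34972156) had 0, 30.7 and 0 FPKM in Run replicates 1, 2 and 3 and 0, 0 and 16.6 in NR replicates 1, 2 and 3. Its neighbour Hspa1b (chromosome 17, 34956436 to 34959238) had 0, 5.37 and 0 in Run and 0, 0 and 1.38 in NR. The genes thus had values in the same 2 libraries, Run replicate 2 and NR replicate 3, and were listed at 0 in the other 4. Their transcripts match at 99.23% identity over 2201 bases, so reads of 1 of them could give both a value in the same libraries. The split between them, 85.1% Hspa1a in Run replicate 2 and 92.3% in NR replicate 3, is uncertain too. With values in 1 library per group, neither gene entered the test. Hspa8 exceeded the pair together by far in every library, at 787 FPKM against 36.1 in Run replicate 2 and 408 against 18.0 in NR replicate 3.

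Dnajb1 (chromosome 8, 83608193 to 83612653), the J-domain partner that rises with HSP70 under heat, had 58.0, 39.3 and 0.0725 FPKM in Run and 47.7, 46.3 and 159 in NR. Run replicate 3 was the lowest and NR replicate 3 the highest, and the other 4 libraries lay close together. Its log2 difference of -2.39 had a 95% interval of -6.29 to 1.51 (limma adjusted p = 0.978). Without Run replicate 3 the difference was -0.56. Dnaja1 (chromosome 4, 40722150 to 40737149), the constitutive J-domain partner, had 94.3, 61.4 and 45.0 FPKM in Run and 19.9, 136 and 63.6 in NR. The NR libraries spanned both ends of its range, and the log2 difference was 0.19 (95% interval -1.89 to 2.26, limma adjusted p = 0.985). The annotated ends of Dnaja1 and of Smu1, a splicing gene on the opposite strand, share 608 bases. Reads of the 2 genes cannot be told apart there unless strand was kept, and the sources used here do not say whether it was. Smu1 had 96.7, 159 and 36.9 FPKM in Run and 56.7, 0 and 32.7 in NR, so that NR replicate 2, the highest for Dnaja1, was listed at 0.

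Early response genes, induced by neuronal activity and also by dissociation, were abundant in both groups. The 15 early response genes summed to 2475, 1547 and 2426 FPKM in Run and 2895, 698 and 3809 in NR. NR replicate 3 was highest for this sum and for Dnajb1, and had one of the 2 non-zero values of Hspa1a. Run replicate 2, with the highest Hspa1a, had the second lowest early response sum. Of the 15 genes, all were tested, 9 had a positive and 6 a negative difference with a median of 0.15, and none passed. The most abundant were Fos, with 525, 130 and 394 FPKM in Run and 378, 67.6 and 590.2 in NR, Junb, with 284, 106 and 339 in Run and 351, 90.4 and 616 in NR, and Dusp1, with 153, 354 and 401 in Run and 297, 108.5 and 233 in NR. The part of dissociation in any of these values was not tested.

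**Figure D3:**
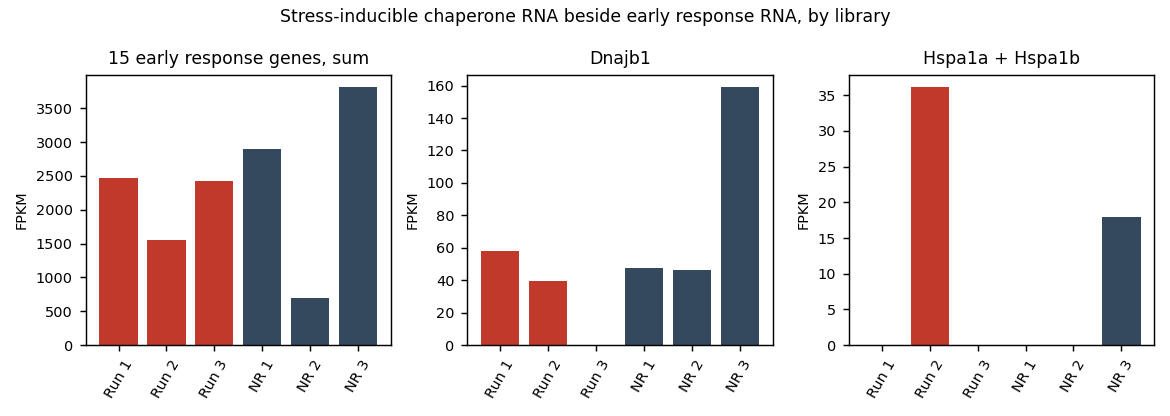
Summed FPKM of 15 early response genes (left), FPKM of Dnajb1 (middle) and summed FPKM of Hspa1a and Hspa1b (right) in each library, Run in red and NR in dark. NR 3 is highest in the left and middle panels, and Run 2 and NR 3 are the only libraries above 0 in the right panel.

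Hspd1 and Hspe1 make 1 folding machine and overlap at their starts on chromosome 1. Their RNA levels tended to run opposite over the 6 libraries, mainly in Run, while NR replicate 3 had the highest NR value of both. Hspd1 (55077835 to 55088243, minus strand) had 48.5, 120.4 and 125 FPKM in Run and 56.5, 33.3 and 66.2 in NR. Run replicates 2 and 3 were above every NR library and Run replicate 1 was within the NR range. The means were 98.1 ± 43.1 in Run and 52.0 ± 16.9 in NR, a log2 difference of 0.84 (95% interval -0.82 to 2.50, limma adjusted p = 0.978), which was 1.28 without Run replicate 1 and 0.55 without NR replicate 2. Hspe1 (55088132 to 55091307, plus strand) had 188, 15.7 and 61.7 FPKM in Run and 123, 167 and 168 in NR. Here Run replicates 2 and 3 were below every NR library and Run replicate 1 above all of them. The means were 88.3 ± 89.0 in Run and 152 ± 25.7 in NR, a log2 difference of -1.38 (95% interval -3.57 to 0.81, limma adjusted p = 0.978). It was -0.48 without Run replicate 2 and -2.23 without Run replicate 1 (limma adjusted p = 0.684, limma unadjusted p = 0.0308), so its size rests on single libraries.

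The ratio of Hspd1 to Hspe1 made the contrast plain. It was 0.258, 7.67 and 2.03 in Run and 0.46, 0.2 and 0.395 in NR, so it stayed below 1 in every NR library and in Run replicate 1, and exceeded 1 in Run replicates 2 and 3. Over the 6 libraries the log2 levels had a Pearson r of -0.8, a description of 6 points from both groups. Of the pairs of members at FPKM 1 or more in all libraries, only Hspa8 with Hsp90ab1 was more negative. Hspe1 also had an r of -0.622 with Hspa8 and 0.599 with Hsp90ab1. The annotated genes overlap by 112 bases on opposite strands, where reads cannot be told apart without strand. Neither gene's difference between the groups passed the test.

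Stip1 (chromosome 19, 7020702 to 7039967), the HSP70 to HSP90 bridge, was the only member whose groups did not overlap. It had 85.03, 47.7 and 62.2 FPKM in the Run libraries and was listed at 0 in all 3 NR libraries. Its log2 difference was 6.0 with an SE of 1.13 and a 95% interval of 3.34 to 8.67. This value depends on the constant added before taking logs, being 9.31 with 0.1 and 2.88 with 10, and no fold can be given against a group at 0. Its limma adjusted p was 0.244 (limma unadjusted p = 0.0011), so Stip1 did not pass. It met the filter on low values through the Run libraries alone, where it is high, so a gene admitted this way had to differ, and its interval and unadjusted p are descriptions. Over its 10 alternatives the adjusted p ranged from 0.0567, without a mean-variance trend, to 0.781. Without any 1 of the Run libraries Stip1 no longer met the filter on low values and was not tested. Of its HSP70 and HSP90 partners, Hspa8 and Hsp90ab1 were at 301 FPKM or more in all 6 libraries. Hsp90aa1 ranged from 48.7 to 235 FPKM, and Hspa1a and Hspa1b reached FPKM 1 in only 2 libraries.

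As a set, 0 of 10 members passed the adjusted threshold of 0.05 by limma, as did 0 of all 6155 genes (0%). Of the 8 tested members 5 had a positive and 3 a negative difference, with a median of 0.12, against 48.9% positive and a median of -0.03 over all tested genes. At an unadjusted p under 0.05 there was 1 member, Stip1, where 304 genes (4.94%) reached it. The same 1 of 10 members had every Run value above every NR value, where 293 genes (4.76%) did, and 0 members had every Run value below, where 258 (4.19%) did. Stip1 was also 1 of 63 genes (1.02%) at FPKM 1 or more in all Run and below 1 in all NR libraries. Without Run replicate 1 the count with no overlap in either direction was 4 (Dnajb1, Hspd1, Hspe1 and Stip1), where 19.2% of all tested genes had none. Without Run replicate 2 it was 3 (Hsp90aa1, Hsp90ab1 and Stip1), where 20.4% had none. The intervals were wide even for the steadiest member, so a missed threshold does not show that levels were equal.

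**Figure D4:**
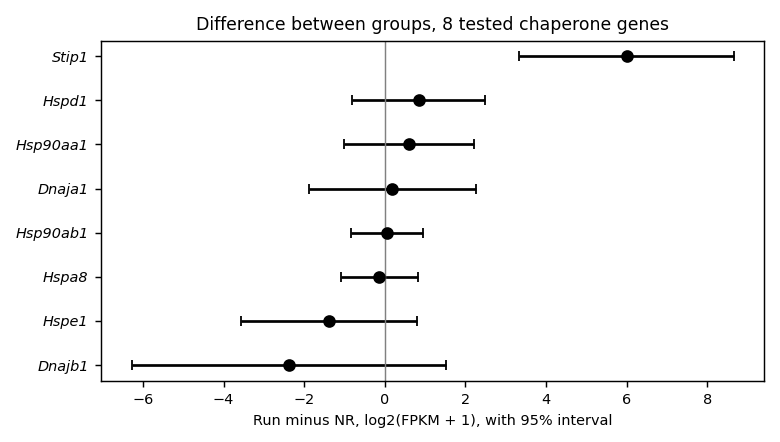
Difference in log2(FPKM + 1), Run minus NR, for the 8 tested chaperone genes, with points at the estimate and bars for the 95% interval from limma. The interval of Stip1, from 3.34 to 8.67, is the only one of the 8 that does not cross 0, and its adjusted p was 0.244.

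Other chaperone classes were read from lists chosen by function, and no gene of any of them passed the adjusted threshold. Small heat shock proteins, which hold unfolding proteins without ATP and are abundant in glia and muscle, had 4 of 7 genes tested. All 4 had negative differences, with a median of -1.31, where 48.9% of all tested genes were positive and the median was -0.03. Not all rest on lower levels throughout: Hspb6 had 0.0135, 97.3 and 0 FPKM in Run and 0, 33.1 and 38.8 in NR, with its highest value in Run. Hspb8, which works with the co-chaperone Bag3 in selective autophagy, had 13.1, 51.4 and 0 FPKM in Run and 278, 155 and 139 in NR. Its groups did not overlap (4.19% of all tested genes had every Run value below), and the log2 difference was -4.34 (SE 1.47, limma unadjusted p = 0.0213, adjusted p = 0.715). Cryab, the alpha-B crystallin of astrocytes and oligodendrocytes, had 29.1, 186 and 213 in Run and 393.5, 231 and 228 in NR, also without overlap (log2 difference -1.37, adjusted p = 0.978). Hspb1 had 152.5, 145 and 80.9 in Run and 140.5, 231 and 192.5 in NR, with overlap. The list summed to 195, 480 and 294 FPKM in Run and 918, 685 and 598 in NR. Oligodendrocyte markers, 6 of 7 with negative differences, summed to 145, 481 and 866.5 in Run and 257, 1112 and 1360 in NR, and their part in these values was not tested.

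Genes that share the work of the set gave mixed values. Of 18 other HSP90 co-chaperones 14 were tested, 6 positive and 8 negative with a median of -0.28. The most abundant were Ptges3 (p23), with 173, 30.7 and 179.5 FPKM in Run and 94.9, 168 and 78.4 in NR, Ahsa1, the activator of the HSP90 ATPase, with 119, 76.8 and 27.4 in Run and 78.5, 65.6 and 230 in NR, and Nudc, with 150, 76.0 and 168 in Run and 112, 35.2 and 41.8 in NR. Their groups overlapped. Cdc37, which brings kinases to HSP90, reached FPKM 1 in too few libraries to be tested. It had 0.0179, 0.00407 and 0.00571 in Run and 25.1, 10.8 and 0.22 in NR, and is named after its values were seen. The groups did not overlap, but every Run value and that of NR replicate 3 were below FPKM 1. Their order therefore rests on values too low to rank. Of all tested genes, which do not include Cdc37, 4.19% had every Run value below every NR value. Of 8 other HSP70 and HSP110 genes 4 were tested, 3 positive and 1 negative with a median of 0.47. Hspa14 had 0.0548, 24.1 and 0 in Run and 55.2, 18.7 and 117 in NR (limma adjusted p = 0.965, limma unadjusted p = 0.0433). Hspa2 had 8.93, 94.2 and 34.1 in Run and 36.6, 34.4 and 0.0490 in NR. Hsph1, an HSP110 that recharges HSP70, had 43.1, 0 and 32.1 in Run and 0, 40.1 and 7.84 in NR.

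J-domain partners and exchange factors, which load and release HSP70, had no gene whose groups did not overlap. Of all tested genes, 4.76% had every Run value above and 4.19% every Run value below, so finding none in lists this short says little. Of 18 other J-domain genes 9 were tested, 5 positive and 4 negative with a median of 0.05. Dnajc7, which binds both HSP70 and HSP90, had 85.4, 23.1 and 35.9 FPKM in Run and 45.0, 115 and 160.5 in NR. Dnajb6, a suppressor of polyglutamine aggregation, had 121, 31.2 and 107 in Run and 13.2, 104 and 87.2 in NR, and Dnajc9, a histone chaperone, 100.4, 61.8 and 0.0956 in Run and 68.4, 59.9 and 94.7 in NR. Of 9 exchange factors and other HSP70 partners 7 were tested, 3 positive and 4 negative with a median of -0.475. Stub1 (CHIP), which ubiquitinates clients held by HSP70 and HSP90, had 86.7, 29.3 and 68.2 in Run and 70.0, 122 and 209 in NR. St13 (HIP) had 22.9, 46.7 and 58.8 in Run and 147.5, 93.8 and 33.1 in NR, and Bag1 had 56.0, 0 and 67.0 in Run and 15.02, 31.4 and 0 in NR.

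Mitochondrial chaperones and the cytosolic chaperonin completed the survey. Of 11 other mitochondrial genes 8 were tested, 3 positive and 5 negative with a median of -0.35. Hspa9, the HSP70 of the matrix, had 78.0, 66.7 and 18.3 FPKM in Run and 99.8, 109.9 and 14.2 in NR, and was lowest in Run replicate 3 and NR replicate 3. Dnajc19, of the import motor, had 139, 100.9 and 118 in Run and 195, 26.9 and 241 in NR, and the protease gene Clpp 134, 151 and 167 in Run and 154, 35.9 and 130 in NR. All 14 TRiC and prefoldin genes were tested, 5 positive and 9 negative with a median of -0.61. The prefoldin gene Pfdn5 was steady at 166, 110.5 and 155 in Run and 125, 229.9 and 145 in NR. The TRiC gene Cct8 had 0.192, 132 and 273 in Run and 182, 105 and 102 in NR, and its partner Cct6a had 198, 95.6 and 223 in Run and 72.1, 64.0 and 8.24 in NR, all Run values being above all NR values, as in 4.76% of all tested genes (limma adjusted p = 0.978, limma unadjusted p = 0.0554). Of the same list, and named after their values were seen, Pfdn2 also had no overlap, with 36.3, 52.0 and 71.1 in Run and 0, 24.0 and 0 in NR (limma adjusted p = 0.909, limma unadjusted p = 0.0338). Pfdn6 lay the other way, with 48.8, 36.2 and 64.7 in Run and 75.8, 177 and 163 in NR (limma adjusted p = 0.978, limma unadjusted p = 0.0645). All its Run values were below all its NR values, as in 4.19% of all tested genes. Of the 5 genes for heat shock factors and for Hsbp1, a binding partner of HSF1, 2 were tested and both were positive, with a median of 0.92. Hsf1, the master regulator, had 0.0107, 0 and 58.8 in Run and 0.0215, 31.1 and 0 in NR, and the 2 libraries where it passed FPKM 1 listed Hspa1a at 0. Hsf2 had 13.9, 14.5 and 23.5 in Run and 0.661, 20.9 and 4.07 in NR. Hsbp1 had 336, 391 and 80.7 in Run and 316, 125 and 181 in NR.

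**Figure D5:**
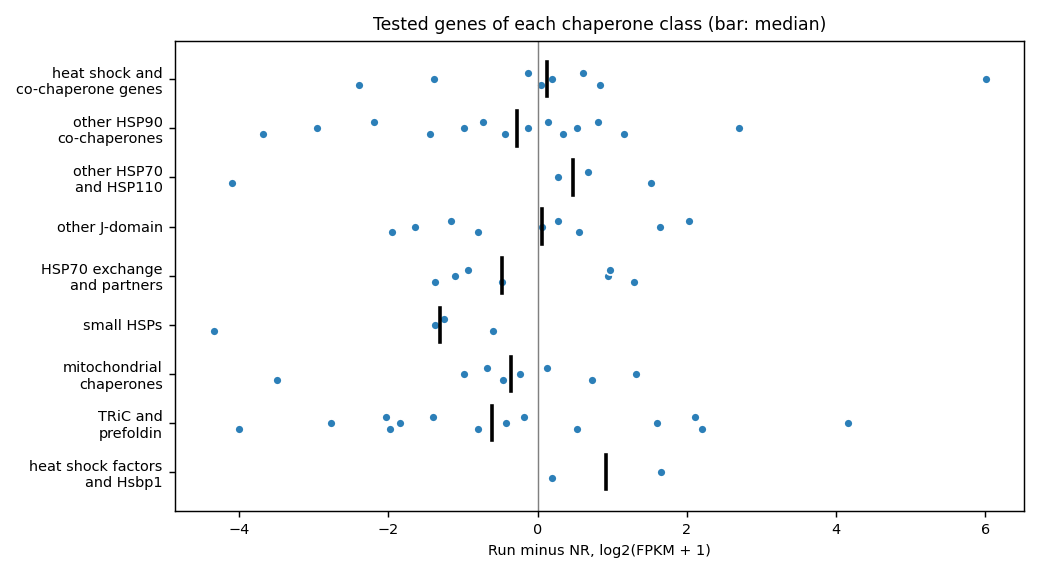
Difference in log2(FPKM + 1), Run minus NR, for each tested gene of 9 chaperone classes, with a point per gene and a bar at the median. The 4 small HSPs all lie below 0 with a median of -1.31, Hsf2 and Hsbp1 lie above 0, the other classes spread over both sides, and the point at 6.0 is Stip1.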

How the data were processed

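RNA was measured in 6 Smart-seq2 libraries, 3 Run and 3 NR, all labelled as 1 batch. The deposited values are FPKM in 1 table of 55367 gene symbols, and the label titles gave each column its sample. The submitters' processing notes list StringTie 2.1.7, STAR 2.7.5c, Trimmomatic 0.39 and the build mm10, without roles or the annotation. PCR without molecular identifiers makes reads dependent. FPKM was taken as deposited, with no further scaling.

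Groups were compared 2-sided on log2(FPKM + 1) by limma 3.58.1 (R 4.3.3, trend on) over genes reaching FPKM 1 in 3 or more of the 6 libraries, which left out Hspa1a and Hspa1b. The code of this fit was also run on simulated data. How the fit performs on values as variable as these was not tested. The pseudocount of 1 understates changes of low genes. Differences carry 95% intervals. Means ± SD are for genes at FPKM 1 or more in all libraries. Of the symbols 53289 (96.2%) matched GENCODE M21 (GRCm38), which gave coordinates. Copies were found with BLAST 2.17.0 on its transcripts, kept from FPKM 0.5 in any library. Motifs were searched on both strands of unique 250-base RefSeq windows. Tables and plots used Python 3.11.15, pandas 2.3.3, numpy 2.4.6 and matplotlib 3.10.9.

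The members and lists were chosen with earlier results of these data known. All members are named, with the 3 most abundant genes of each chaperone and early response list, Hsf1, and the 3 genes most alike to each of the 3 most abundant members among genes at FPKM 1 or more in all libraries. Dsp, S100b, Cdc37, Hspb6, Pfdn2, Pfdn6, Lyz2, Ptprc, the haemoglobin genes, Smu1 and the copies were added to these after their values were seen. Alternatives varied the pseudocount, filter, scaling, trend, block and libraries.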

Additional observations from a re-analysis of the deposited data

How the results depend on the processing

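Under 14 alternatives to the limma fit the count of genes past the adjusted threshold stayed at 0, as did that of the 10 chaperone genes, with 82 to 404 genes at an unadjusted p under 0.05 and 1751 to 17361 genes tested. Stip1 was tested in 10 alternatives and left out by the filter whenever a Run library was removed, so its stability was not shown. Leaving out each library in turn, the log2 difference of Hsp90aa1 ranged from -0.0722 to 0.94, of Hsp90ab1 from -0.14 to 0.35, of Hspa8 from -0.45 to 0.13 and of Dnaja1 from -0.54 to 0.82. Those 4 signs therefore rest on single libraries: NR replicate 3 for Hsp90aa1, NR replicate 1, Run replicate 1 or Run replicate 3 for Hsp90ab1, and NR replicate 1 or Run replicate 1 for Hspa8 and Dnaja1. Dnajb1 (-3.45 to -0.56), Hspd1 (0.55 to 1.28) and Hspe1 (-2.23 to -0.48) kept their sign in all 6, and Stip1 in the 3 that left out an NR library. Without Run replicate 1, Hspe1 had an unadjusted p of 0.0308. The number of members with no overlap ranged from 1 to 4. The ratio of the summed levels, 1.02 as reported, ranged from 0.986 without the 3 most abundant members to 1.07 without NR replicate 2. With copies added (chosen after seeing the data) it was 1.02. Pseudocounts of 0.1 and 10, rescaling all libraries to the same sum, quantile normalization and the other settings changed no sign of a tested member. Requiring FPKM 1 in all 6 libraries removed Stip1 and Dnajb1 from the test. With no filter, Hspa1a and Hspa1b had log2 differences of 0.28 and 0.47 (limma adjusted p = 1 and 0.905).

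The sources used here do not say whether equal replicate numbers pair the libraries. Deviations of same-numbered Run and NR libraries from their group means correlated at 0.0211, 0.0042 and 0.0179 over genes. Those of differently numbered libraries correlated at -0.019 to 0.0005. Such small correlations cannot decide whether the design was paired. With a replicate block 0 genes passed, 251 had an unadjusted p under 0.05, and Stip1 had a log2 difference of 6.0 (adjusted p = 0.754). The spread between libraries of the same group and the unknown depth limit what 3 against 3 can show.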
